A study of Homo sapiens with 4 samples.

Results

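Amino acid transporter genes code for the carriers that move amino acids across the plasma membrane, and 10 of them were followed in K562 cells, a human erythroleukemia line, after treatment with the thalidomide analog AC-1041. The 10 genes were SLC3A2, SLC7A1, SLC7A5, SLC7A6, SLC1A4, SLC1A5, SLC38A1, SLC38A2, SLC43A1 and SLC6A9. They were chosen by gene name, as plasma membrane amino acid carriers other than the cystine carrier SLC7A11, among the 14267 distinct names on the array. Each of the 10 genes had 1 probe among 14297 gene probes. Treated and control RNA were labelled with different dyes and compared on 4 two-colour arrays, each of which yields 1 treated over control ratio per probe. Treatment lasted 4 h. Cy5 marked the treated RNA on arrays 1 and 2, and Cy3 marked it on arrays 3 and 4. The labels call the control cells untreated, whereas the methods name a DMSO control. The labels give no dose, while the methods state one. K562 is a single established line without normal cells beside it. By the methods, 4 samples of each compound and their controls were collected. The labels do not say whether the arrays came from separate cultures. The p-values then measure only the spread between these arrays.

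Amino acid carriers work in a few mechanical classes. Some are obligate exchangers that take in 1 amino acid for each one they release, some use the sodium gradient to load the cell, and some are simple facilitators. SLC3A2 is not a carrier itself but the glycoprotein heavy chain (CD98) that brings the SLC7 light chains, among them SLC7A5, SLC7A6 and SLC7A11, to the cell surface. Several carrier genes are known targets of the amino acid response, in which the kinase EIF2AK4 (GCN2) and other kinases raise the translation of ATF4, and ATF4 with C/EBP partners binds DNA elements built on the letters TGATGNAA. In erythroid cells amino acid uptake also serves heme and globin synthesis, with SLC6A9 bringing in glycine.

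After 4 h of AC-1041, 9 transporter genes were bright enough to test. At an adjusted p under 0.05, 4 of them were higher in treated than in control cells and 0 were lower. The 4 genes were the heavy chain SLC3A2 (2.11-fold), the sodium-coupled neutral amino acid carrier SLC38A2 (2.08-fold), the neutral amino acid exchanger SLC1A4 (1.83-fold) and the cationic amino acid carrier SLC7A1 (1.34-fold). The light chains SLC7A5 and SLC7A6, the glutamine carrier SLC1A5, SLC38A1 and the facilitator SLC43A1 did not pass the threshold. Among all 8852 probes tested, 24.3% were higher and 13.0% lower at this threshold, 37.3% in all. Genes at least 1.8-fold higher were 3 of the 9, beside 2.39% of all probes. The 9 genes had a median log2 ratio of 0.25, beside 0.02 for all probes. At an unadjusted p under 0.05, 5 of the 9 genes passed and 0 of them were lower. The test was limma, which fitted the treatment beside a dye term (the part of the Cy5 over Cy3 ratio that stays when the dyes are swapped), with p-values adjusted by Benjamini-Hochberg over all probes. Without the dye term 0 of the 9 genes passed, with adjusted p-values of 0.067 for SLC38A2, 0.121 for SLC1A4, 0.236 for SLC3A2 and 0.359 for SLC7A1, and 0.582% of all probes were higher and 0.0448% lower under that fit.

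The arrays themselves set limits on these values. Probes well above background numbered from 5941 to 7403 per channel on arrays 1 and 2 and from 8982 to 9515 on arrays 3 and 4, and no spot was saturated. Negative control spots had an SD from 226 to 308 on arrays 1 and 2 and from 27.8 to 40.5 on arrays 3 and 4. Across probes the log2 ratios correlated at 0.81 between arrays 1 and 2 and at 0.94 between arrays 3 and 4, but between -0.29 and -0.12 for arrays of opposite dye orientation. The dye term passed the threshold for 58.2% of probes, and dye orientation, array quality and position on the slide cannot be told apart. Since the dye term absorbs what differs between orientations, the SE of a fitted value reflects the difference between arrays of the same orientation, whereas each SD below runs over arrays. Of 13 K562 markers on the array, 12 were well above background in control cells on all 4 arrays. Among 14 markers of other cell types 3 were so on all 4 arrays, EPCAM among them, and 6 were on none. The exact sign-flip permutation test of 1 gene over 4 arrays (two-sided) has a smallest possible p of 0.125.

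**Figure D1:**
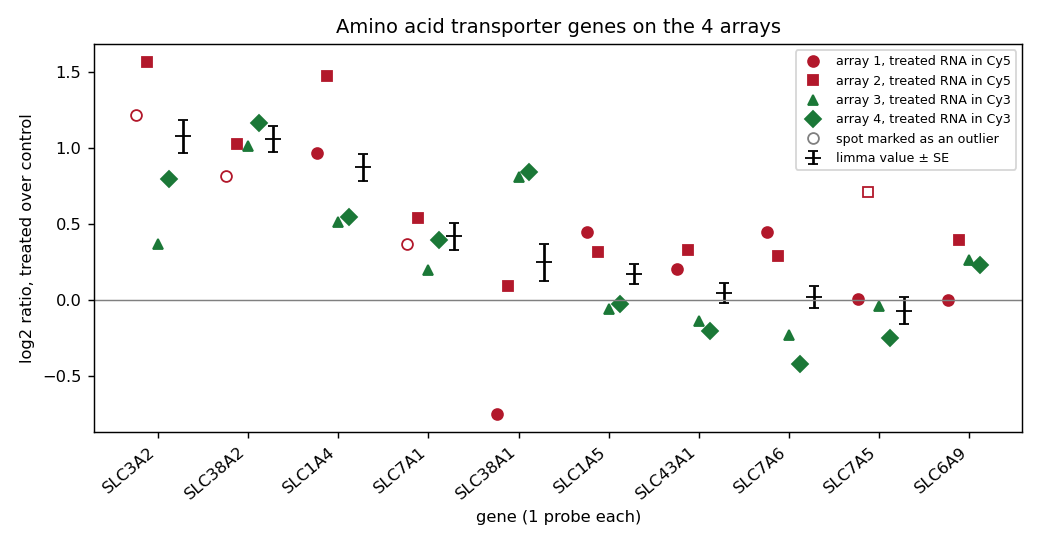
Log2 ratio of treated over control cells (vertical axis) for each of the 10 transporter genes (horizontal axis) on the 4 arrays. Red marks arrays with the treated RNA in Cy5, green those with it in Cy3, open symbols are spots marked as outliers, and the bars are the limma value ± SE. SLC3A2, SLC38A2, SLC1A4 and SLC7A1 lie above 0 on all 4 arrays, while SLC38A1, SLC1A5, SLC43A1 and SLC7A6 separate by colour. SLC6A9 has no bar because it was not tested.

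SLC3A2, the heavy chain, was read by a probe at chr11:62412778-62412837 of hg18 on the plus strand. Its normalized intensity in treated cells was 107185, 94963, 79570 and 122288 on arrays 1 to 4, and in control cells 46066, 32076, 61507 and 70399. Every normalized treated value lay above every normalized control value, and the lowest treated value, on array 3, lay closest to the controls. Before normalization the treated signal was the lower one on arrays 3 and 4, at 57210 and 71451 against 70630 and 84144 in control cells. The direction on those arrays therefore rests on the normalization. After it, the log2 ratios of SLC3A2 were 1.22, 1.57, 0.37 and 0.80. The image analysis software marked the spot on array 1 as an outlier, so the fit used the other arrays. It gave a log2 ratio of 1.07 with an SE of 0.11 (limma adjusted p = 0.000306), and the SD over the unmarked arrays was 0.61 (n = 3). The ratio was larger with the treated RNA in Cy5 (mean 1.39) than in Cy3 (mean 0.58), and the dye term of SLC3A2 was 0.49 (limma adjusted p = 0.00602). With the marked spot kept, the log2 ratio was 0.92 (limma adjusted p = 0.00209).

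Among the light chains that pair with SLC3A2, SLC7A5 (LAT1) carries leucine and other large neutral amino acids in exchange for glutamine, and SLC7A6 (y+LAT2) exchanges arginine for glutamine. The SLC7A5 probe spans 1448 bases of chr16:86424132-86425579 on the minus strand of hg18, so it crosses an intron. The next lines show the probes of SLC7A5, for which no change passed the test, and of SLC6A9, which could not be tested, since they define the stretch of transcript that was read. Each is written 5′ to 3′ as in the deposited files, with no part in capitals.
SLC7A5: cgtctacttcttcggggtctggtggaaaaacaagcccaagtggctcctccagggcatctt
SLC6A9: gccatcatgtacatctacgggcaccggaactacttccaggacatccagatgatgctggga

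The intensity of SLC7A5 in treated cells was 964, 1975, 858 and 823 on arrays 1 to 4, against 959, 1208, 882 and 975 in control cells. The ranges overlapped, and the value of 1975 came from a spot marked as an outlier. The log2 ratios were 0.01, 0.71, -0.04 and -0.24, and the fit without the marked spot gave -0.07 with an SE of 0.09 (limma adjusted p = 0.585). With the marked spot of SLC7A5 kept, the value was 0.11 (limma adjusted p = 0.519). Control RNA was well above background on 3 of the 4 arrays at this probe.

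For SLC7A6, whose probe lies at chr16:66890181-66890240 on the plus strand, treated cells gave 2202, 2554, 1906 and 1706 and control cells 1616, 2090, 2234 and 2281. The treated RNA was the brighter one on arrays 1 and 2 and the dimmer one on arrays 3 and 4. The log2 ratios were accordingly 0.45, 0.29, -0.23 and -0.42, with a fitted value of 0.02, an SE of 0.07 and an SD of 0.41 (n = 4, limma adjusted p = 0.833). On arrays 3 and 4 alone SLC7A6 was called lower, at -0.32 (limma adjusted p = 0.00326), in a fit where 31.4% of all probes were lower. The log2 ratio of the heavy chain exceeded that of its light chain SLC7A5 within every array, by 1.21, 0.86, 0.41 and 1.04, with marked spots on arrays 1 and 2. The mean difference was 0.88 ± 0.34 (SD, n = 4, exact sign-flip p = 0.125, two-sided, the smallest it can give).

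Cationic amino acids enter through SLC7A1 (CAT-1), a facilitator for arginine and lysine that needs no heavy chain. Its probe lies at chr13:28982093-28982152 on the minus strand. Treated cells gave 7835, 6129, 7730 and 7921, and control cells 6067, 4209, 6724 and 6024. Treated exceeded control on each array, yet the groups overlapped because both values of array 2 were low. On the log2 scale the ratios were 0.37, 0.54, 0.20 and 0.39, and the spot on array 1 was marked as an outlier. The fitted log2 ratio of SLC7A1 was 0.42 with an SE of 0.09 (limma adjusted p = 0.009), and the SD was 0.17 over the unmarked arrays (n = 3). Its dye term was 0.12 (limma adjusted p = 0.265).

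The SLC1 family holds SLC1A4 (ASCT1) and SLC1A5 (ASCT2), sodium-dependent exchangers of small neutral amino acids. SLC1A4 favours alanine, serine and cysteine, and SLC1A5 is a main route for glutamine. At the SLC1A4 probe, chr2:65101942-65102001 on the plus strand, treated cells gave 1236, 1454, 1319 and 1396 and control cells 634, 524, 925 and 958. No control value reached the lowest treated one, and the treated values were the tighter group. As log2 ratios these were 0.96, 1.47, 0.51 and 0.54, and no spot was marked. The fit for SLC1A4 gave 0.87 with an SE of 0.09 and an SD of 0.45 (n = 4, limma adjusted p = 0.0002). Control RNA of SLC1A4 was well above background on 3 of the 4 arrays. The mean ratio was 1.22 on arrays 1 and 2 and 0.53 on arrays 3 and 4, and the dye term was 0.35 (limma adjusted p = 0.0103). SLC1A4 stayed past the threshold when each array was left out in turn.

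SLC1A5 was read at chr19:51970739-51970798 on the minus strand. Treated cells gave 12793, 13609, 11427 and 11732, and control cells 9363, 10932, 11893 and 11937. Values of both groups were intermixed. The log2 ratios were 0.45, 0.32, -0.06 and -0.03, with a fitted value of 0.17, an SE of 0.07 and an SD of 0.25 (n = 4, limma adjusted p = 0.0722). SLC1A5 crossed the threshold under median centring, with an intensity-dependent prior, without array 2 and on arrays 1 and 2 alone, at 0.23, 0.17, 0.20 and 0.38. Within each array the log2 ratio of SLC1A4 exceeded that of SLC1A5 by 0.51, 1.16, 0.57 and 0.57. The mean of these differences was 0.70 ± 0.30 (SD, n = 4, exact sign-flip p = 0.125).

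The system A carriers SLC38A1 (SNAT1) and SLC38A2 (SNAT2) load small neutral amino acids with sodium and are encoded side by side on chromosome 12. Their probes lie at chr12:44868274-44868333 and chr12:45038977-45039036, both on the minus strand. SLC38A2 is known as the member of the pair whose transcript rises when amino acids run short. Its intensity in treated cells was 28034, 27866, 35683 and 36270, against 15903, 13664, 17677 and 16174 in control cells. The groups were well apart, with no treated value below 27866 and no control value above 17677. The log2 ratios of SLC38A2 were 0.82, 1.03, 1.01 and 1.17, with the spot on array 1 marked. The fitted value was 1.06 with an SE of 0.09 (limma adjusted p = 0.000135), and the SD over the unmarked arrays was 0.08 (n = 3). Its dye term was -0.03 (limma adjusted p = 0.778), and the mean ratio of arrays 1 and 2 (0.92) lay near that of arrays 3 and 4 (1.09).

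SLC38A1, the neighbour, gave 8471, 11615, 14787 and 13753 in treated cells and 14217, 10892, 8433 and 7661 in control cells. Arrays 3 and 4 had more signal in treated cells, array 2 had nearly equal signals, and array 1 had less. The log2 ratios were -0.75, 0.09, 0.81 and 0.84, with a fitted value of 0.25, an SE of 0.12 and an SD of 0.75 (n = 4, limma adjusted p = 0.138). The dye term of SLC38A1 was -0.58 (limma adjusted p = 0.00385), opposite in sign to that of the other genes here with a dye term past the threshold. SLC38A1 was called higher on arrays 3 and 4 alone, at 0.83 (limma adjusted p = 2.1e-08), and without array 1, at 0.46, while arrays 1 and 2 alone gave -0.33. In the fit of arrays 3 and 4, 38.3% of all probes were higher, and in the fit without array 1, 29.4%. Within each array the log2 ratio of SLC38A2 exceeded that of SLC38A1 by 1.56, 0.94, 0.20 and 0.32. The mean of these differences was 0.76 ± 0.63 (SD, n = 4, exact sign-flip p = 0.125). These 3 pairs of transporter genes were set side by side after their values were seen.

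SLC43A1 (LAT3) lets leucine and related amino acids pass by facilitated diffusion. At chr11:57008877-57008936 on the minus strand, treated cells gave 3899, 3200, 3397 and 3364 and control cells 3381, 2543, 3740 and 3869. The groups overlapped, and the sign again followed the dye, with log2 ratios of 0.21, 0.33, -0.14 and -0.20. The fitted value was 0.05 with an SE of 0.07 and an SD of 0.26 (n = 4, limma adjusted p = 0.589).

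SLC6A9 (GLYT1), the glycine carrier, was read by the probe shown above, which covers 148 bases of chr1:44239086-44239233 on the minus strand and so crosses an intron. It was well above background in both groups on array 4 and in neither on the other arrays, and was therefore not tested. Its intensity was 697, 313, 441 and 504 in treated cells and 696, 238, 367 and 430 in control cells. The log2 ratios were 0.00, 0.40, 0.26 and 0.23. Fitted without the filter on dim probes, SLC6A9 gave 0.22 with an SE of 0.08 (limma adjusted p = 0.0652).

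Taking the transporter genes by dye orientation, the ratio was above 0 on all 4 arrays for 4 of the 9 tested genes, beside 15.7% of all probes. Normalized levels in treated cells lay wholly above those in control cells for SLC3A2, SLC38A2 and SLC1A4, beside 6.42% of all probes. On arrays 3 and 4 the raw signal of SLC3A2 was the lower one in treated cells. Spots of SLC3A2, SLC38A2, SLC7A1 and SLC7A5 were marked as outliers on 1 array each, which touched 9.73% of all probes. For the first 3 the marked array was array 1, as for 9.27% of probes, so their fitted values rest on 1 array with the treated RNA in Cy5. The marked spots of these 3 genes read the same way as the unmarked ones. For all 4 genes with a marked spot, the remaining Cy5 array has no partner in the fit. Of the gene's own values, only the difference between arrays 3 and 4 then enters the SE and the p-value.

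The profile of SLC3A2 over the 4 arrays was closest to those of BTN2A2, FOS and GABARAPL1. The search covered tested probes named through RefSeq, with the transporter genes left out. Likeness was the root mean square distance between log2 ratios, which was 0.108 for BTN2A2, 0.160 for FOS and 0.202 for GABARAPL1, with the marked spot included. BTN2A2 codes for a butyrophilin of the immunoglobulin superfamily and had log2 ratios of 1.34, 1.45, 0.44 and 0.69. FOS, an AP-1 subunit, had 1.44, 1.44, 0.55 and 0.73. GABARAPL1, of the ATG8 family of autophagy proteins, had 1.12, 1.21, 0.35 and 0.63. All 3 were thus larger with the treated RNA in Cy5, as SLC3A2 was.

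Promoter sequence was examined because the element TGATGNAA is the known landing site of ATF4 with its C/EBP partners in carrier genes. RefSeq windows of GRCh38.p14, from 250 bases before to 50 bases after an annotated start site, were available for all 10 genes, 17 windows in all. Both strands were searched. TGATGNAA was found in windows of 5 of the 10 genes, SLC3A2, SLC7A1, SLC1A4, SLC1A5 and SLC38A1, beside 4.46% of 27305 genes and 3.62% of 35116 windows. The lines below give the 30 bases around each match on the strand of the gene, with the match in capitals. For SLC3A2 and SLC1A4 the letters are on the opposite strand, so the capitals show the reverse complement.
SLC3A2, chr11:62881719-62881748, plus strand: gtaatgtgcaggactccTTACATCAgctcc
SLC7A1, chr13:29595663-29595692, minus strand: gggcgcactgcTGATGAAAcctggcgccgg
SLC1A4, chr2:64989381-64989410, plus strand: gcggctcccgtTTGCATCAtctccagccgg
SLC1A5, chr19:46784893-46784922, minus strand: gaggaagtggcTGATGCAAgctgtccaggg
SLC38A1, chr12:46266502-46266531, minus strand: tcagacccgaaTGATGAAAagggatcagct

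Counted from the start site of its window, the match began at position 38 in SLC3A2, 8 in SLC7A1, -7 in SLC1A4, -97 in SLC1A5 and -4 in SLC38A1. Of the 5 genes with a match, 3 passed the test for a higher level (SLC3A2, SLC7A1 and SLC1A4) and SLC1A5 and SLC38A1 did not. SLC38A2 passed it with no match in its 1 window, and sequence outside the windows, such as introns further in, was not searched. The windows belong to single annotated starts, and SLC3A2 and SLC1A5 have 3 windows each, SLC1A4, SLC38A1 and SLC43A1 have 2, and the others 1. The AP-1 site TGANTCA occurred in SLC3A2 and SLC38A1, beside 9.37% of all genes. The E-box CACGTG occurred in SLC1A5, SLC7A5 and SLC43A1, beside 8.77%, and the cAMP response element TGACGTCA occurred in 0 of the 10 genes, beside 2.25%. None of these matches overlapped another. They describe letters and do not show binding.

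Other plasma membrane amino acid carriers were mostly dim in these cells. Of 36 such genes on the array, 20 were well above background in neither group on any array and 11 could be tested. In treated cells 3 of the 11 were higher and 1 was lower, with a median log2 ratio of -0.03. SLC7A11, the cystine and glutamate exchanger that also pairs with SLC3A2, had log2 ratios of 1.72, 1.44, 3.70 and 3.63 and a fitted value of 2.62 with an SE of 0.07 (limma adjusted p = 1.21e-06). SLC43A2 (LAT4), the relative of SLC43A1, had 0.86, 1.46, 1.67 and 1.62 and a fitted value of 1.40 with an SE of 0.10 (limma adjusted p = 3.14e-05). Control RNA was well above background on 3 of 4 arrays for both, and the ratio of SLC7A11 was smaller with the treated RNA in Cy5, the reverse of SLC3A2. SLC6A13, a GABA carrier, was called higher (limma adjusted p = 0.00594). It was not well above background in control cells on any array and on only 2 arrays in treated cells. Its mean treated level was 0.94-fold the lowest control signal well above background on each array, or the probe's own where higher. That allows no change. SLC7A8 (LAT2), another partner of SLC3A2, fell by 0.27 on the log2 scale (limma adjusted p = 0.0434), with ratios of 0.11, -0.39, -0.36 and -0.42.

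Carriers of organelle membranes moved in both directions. Of the 11 tested, 2 were higher and 3 lower, and the median was -0.07. CTNS, the lysosomal cystine exporter, rose by 0.42 (limma adjusted p = 0.0017) and SLC25A38, the mitochondrial glycine carrier of heme synthesis, by 0.36 (limma adjusted p = 0.00425). The mitochondrial carriers SLC25A15, for ornithine, SLC25A22, for glutamate, and SLC25A29, for basic amino acids, had fitted values of -0.29, -0.26 and -0.21. SLC25A15 was lower only with the treated RNA in Cy3, with log2 ratios of 0.47, 0.00, -0.77 and -0.85 on arrays 1 to 4. The others kept their sign but differed in size between orientations. With the treated RNA in Cy5 and in Cy3 the means were 0.71 and 0.12 for CTNS and 0.27 and 0.45 for SLC25A38. They were -0.47 and -0.05 for SLC25A22 and -0.35 and -0.08 for SLC25A29. Over the 155 tested genes of all other solute carriers, 41 were higher and 26 lower, with a median of 0.01.

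The genes through which cells sense amino acids and drive the mTORC1 kinase gave 7 higher and 1 lower of 19 tested, with a median of 0.09. SESN2, a leucine sensor that restrains mTORC1 and is itself a target of ATF4, had log2 ratios of 0.97, 1.91, 0.79 and 0.98 and a fitted value of 1.16 with an SE of 0.13 (limma adjusted p = 0.00034). RRAGC and RRAGD, the GTPases that bring mTORC1 to the lysosome, were called at 0.71 (limma adjusted p = 0.0037) and 0.60 (limma adjusted p = 0.00139). RRAGD was not well above background in control cells on any array and on only 2 arrays in treated cells, which allows a change of at least 1.05-fold. A fold of this kind sets the mean treated level against the lowest signal well above background on each array or the probe's own, whichever was higher. NPRL2, of the GATOR1 complex, fell by 0.21 (limma adjusted p = 0.0481). DDIT4, an inhibitor of mTORC1, could not be tested because arrays 1 and 3 had marked spots for it.

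Proteins that hold carriers at the membrane or remove them were mixed, with 2 higher and 2 lower of 8 tested and a median of -0.05. NEDD4L and NEDD4, ubiquitin ligases that tag carriers for internalization, rose by 0.44 and 0.36, with limma adjusted p-values of 0.00385 and 0.00337. ITGB1, the integrin chain that associates with SLC3A2, fell by 0.33 and SGK1, a kinase that holds off NEDD4L, by 0.29, with limma adjusted p-values of 0.005 and 0.0131. The log2 ratios of SGK1 were -0.68, -0.50, 0.10 and -0.09 on arrays 1 to 4. With the treated RNA in Cy5 and in Cy3 the means were 0.11 and 0.61 for NEDD4, 0.39 and 0.50 for NEDD4L, and -0.57 and -0.09 for ITGB1. The sodium pump, which maintains the gradient that SLC1 and SLC38 carriers use, had 2 lower and 0 higher of 5 tested subunits, with 0 higher also at an unadjusted p under 0.05. ATP1B2, a beta subunit, was among the lower ones, with a fitted value of -0.30 and log2 ratios of -0.16, 0.23, -0.77 and -0.50.

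Amino acid response genes that are not carriers were higher for 20 of the 24 tested and lower for 0, with a median log2 ratio of 0.60. Of all probes, 24.3% were higher and 13.0% lower. The ratio was above 0 on all 4 arrays for 17 of the 24, beside 15.7% of all probes. The mean ratio had the same sign in both dye orientations for 17 of the 24, so some called genes changed sign with the dye. At an unadjusted p under 0.05, 21 passed and 1 of them was lower. CTH, the cystathionine lyase that makes cysteine, had log2 ratios of 1.89, 2.64, 2.48 and 2.83, a fitted value of 2.46 and an SE of 0.12 (limma adjusted p = 7e-06). ATF3, a stress transcription factor, had a fitted value of 2.10 and GDF15, a stress-induced secreted factor, one of 1.74. The range of this list, from -0.16 to 2.46, held the values of all 9 tested transporter genes (-0.07 to 1.07), called or not. It therefore does not set the called ones apart.

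Markers of the cells moved beside these genes. Of the 13 K562 markers tested, 5 were lower and 1 higher, among them LMO2 and KLF1, which fell by 1.03 and 0.70, and EPOR rose by 0.22. Of 7 tested markers of other cell types 3 were lower, among them CD3D and EPCAM, with fitted values of -0.24 and -0.22, and 0 were higher. EPCAM was lower only with the treated RNA in Cy5, with log2 ratios of -0.88, -1.03, 0.54 and 0.48. The part of any shift in cell state in the transporter values was not tested, and in RNA of whole cultures fewer cells of a kind and less RNA per cell cannot be told apart.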

How the data were processed

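The 4 two-colour arrays of K562 cells were analysed as 4 replicates. The authors quantified the scans with Feature Extraction (version 9.5.1.1 in the file headers) and deposited the unnormalized intensity of each spot and its local background in both channels, with a log10 ratio of Cy5 to Cy3. A second deposited table holds log10 ratios that read treated over control (column median 0 on each array). Columns of the authors' ratio errors and p-values were not used. Background was corrected with normexp (offset 50), control spots were removed, and loess (span 0.3) was run within each array. Spots marked as outliers (1.57% to 8.08% of probes per array) had no weight. Probes were kept if at least 2 arrays had 1 or both channels well above background, and were fitted with limma 3.58.1 in R 4.3.3, with treatment and dye terms. Intensities of single channels come from loess followed by Aquantile. Of 14297 probes, 12002 were named through RefSeq transcript accessions (GRCh38.p14), with probe positions on hg18 as the files give them. Promoter sequences are from RefSeq. The fit was tested on simulated ratios. All 4 arrays lay on 1 slide with 1 scan date, so neither could be a block. The genes and lists were chosen with earlier results of these data known. Named besides the 10 genes are up to 3 called genes per list and direction with the largest change, and the 3 profiles most like SLC3A2. DDIT4 and the genes of the 5 motif matches were named outside that rule, and some results are not reported here. Alternatives were other background corrections, median centring, the deposited log10 ratios, other filters, marked spots kept, no dye term, an intensity-dependent prior, a threshold of 0.01, each array left out, and each dye orientation alone (the last added after seeing the data).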

Additional observations from a re-analysis of the deposited data

Results flagged for a closer look

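Of 35 genes looked at, 2 had 1 array far from the other 3, and chance marks about 1 in 20. For SLC7A8 the log2 ratio on array 1 (0.11) was apart from the others, the gap being 0.901 of the range. For SESN2 it was array 2 (1.91), with a gap of 0.836 of the range.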

How the results depend on the processing

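Of 126 values of single transporter genes under 16 other settings, 106 kept their direction and their side of the threshold. Part of this was fixed beforehand. The threshold of 0.01, the intensity-dependent prior and the filters on dim probes leave the fitted value as it is. Leaving out array 1 does the same for SLC3A2, SLC38A2 and SLC7A1, whose spots there were already marked. SLC3A2, SLC38A2, SLC1A4 and SLC7A1 kept a positive value in every fit that could be made. Without the dye term, 0 transporter genes were higher and 0 were at least 1.8-fold higher, and 1 other plasma membrane carrier was higher and 0 lower. Restricted to probes bright in both channels of every array, only 3 other carriers could be fitted, of which 0 were higher and 2 lower. This filter removed SLC7A11, SLC43A2 and SLC6A13, the 3 called higher in the main fit, so their calls were not examined under it. Among the transporter genes it removed SLC1A4 and SLC7A5. Median centring, marked spots kept and a threshold of 0.01 each left 0 other carriers lower. Leaving out each array in turn gave 1 to 5 transporter genes higher (5 without array 1, SLC38A1 being added), 0 to 3 at least 1.8-fold higher, a median from 0.051 to 0.44, and 0 to 3 other carriers lower. In the fits without array 2, 3 or 4, SLC3A2, SLC38A2 and SLC7A1 had too few unmarked spots and drop out of these counts. Arrays 3 and 4 alone gave 1 transporter gene lower (SLC7A6), 1 at least 1.8-fold higher and 5 other carriers lower, and arrays 1 and 2 alone gave 1 at least 1.8-fold higher and 0 other carriers lower. Values near 0 changed sign. SLC7A6 was -0.013 with the processed signals of Feature Extraction, -0.012 with the deposited table, -0.32 on arrays 3 and 4, and from -0.026 to 0.069 with each array left out. SLC7A5 was 0.11 with marked spots kept. On arrays 3 and 4, SLC1A5 was -0.041 and SLC43A1 -0.17, and on arrays 1 and 2 SLC38A1 was -0.33. The cause was not tested. Each ratio compares treated and control RNA within an array, so every fit here is already paired, and the arrays form a single group in which no further block for the array number could be fitted. Dim probes limit what can be said of SLC6A9 and of most other carriers.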
